A study of Bos grunniens and Bos taurus with 11 samples.

Results

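The genes described here carry the prefix NewGene in the deposited tables, taken here to mark newly assembled transcripts, and were given a gene name. Whether they lie outside the annotated genes of the yak reference was not checked. They were selected by their levels: an FPKM (the fragments of a gene, scaled for its length and for the mapped fragments of the library) of at least 1 in at least 2 of the 11 libraries, and a mean FPKM over the 11 libraries under 500. Of 8816 new genes, 390 carried a name, and 344 of these passed the selection, out of 17267 genes in the tables and 13636 genes that reached the same FPKM floor. The other 46 fell under the floor, and none was over the upper limit. Just inside the floor stood RAET1 (NewGene.9318), whose second-highest FPKM was 1.02, and just outside it SETMAR (NewGene.5166), at 0.939. The highest mean FPKM was 412, in NewGene.1. Because the selection used levels and no comparison of groups, differences between groups could be tested, but a gene that passed only through 1 group had to differ from the others: 310 of the 344 reached 1 FPKM in at least 1 cattle and in at least 1 yak library.

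The study set lung tissue of yaks (Bos grunniens) from 3 altitudes beside that of lowland cattle (Bos taurus), to compare gene expression along the altitude gradient. The CON group held 2 Zaosheng cattle living at 1500 m, and the groups T1, T2 and T3 held 3 yaks each, from 3400, 4200 and 5000 m. All were indigenous adult males, 1 animal per library, and the yaks of T2 came from 3 counties. Species, altitude and place differed together between CON and every yak group, so their parts cannot be told apart, and reads of both species had been aligned to the yak reference. The libraries held 28138973 to 54515645 reads on genes. Replicates 1 and 2 of T3 stood apart from the rest, with 39.7% and 40.7% of their reads on their 10 most abundant genes against 17.5% to 30.8% in the other libraries. They also had the fewest named new genes at 1 FPKM or more, 270 and 247, against 286 to 305 elsewhere.

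An assembler reports a new gene where aligned reads form a transcript that overlaps no annotated one, which can happen at a gene missing from the annotation, at an unannotated copy of a known gene, or at a repeat that is transcribed. The names here are those of KEGG orthologs, groups of genes that share a function across species, so a name says which family a transcript resembles and not which locus it is. Ribosomal proteins, heat shock proteins and nuclear ribonucleoproteins are families known in mammals for many intronless copies, and reads of near-identical copies may be divided between them. How the counting treated such reads was not tested, and values of members from these families are uncertain to that extent. The positions of the new genes were not used here, and no sequences are shown.

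The 344 members carried 197 distinct names. TAS2R, the name of the bitter taste receptors, which are G protein-coupled receptors best known from the tongue and also described in airway, was by far the most frequent and was held by 106 members. KRAB, a repressor domain found at the start of many zinc finger proteins, was held by 9 members, and SETMAR, a fusion of a histone methyltransferase with a transposase, by 8. RPL17 was held by 4 members, HAUS3, MED30, ND5 and TSPYL5 by 3 each, and 16 further names by 2 each. Of 21 pairs of members with consecutive numbers, 15 shared a name, 6 of them TAS2R. A KEGG pathway was listed for 244 members and a Gene Ontology term for 238. After Taste transduction, which took in all 106 TAS2R members, the pathways with the most members were Ribosome with 17 and Oxidative phosphorylation with 12. Lysine degradation, Parkinson's disease and Pathways in cancer followed with 11 each, and 8 of those in Lysine degradation were SETMAR. None of 51 marker genes of lung cell types, blood and retina named a member, so the tissue label could not be checked on this set.

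The members named TAS2R differed from the others in length and annotation. Their median length was 4927 bases (211 to 64453), against 831 bases for the 238 members with other names and 435 bases for the 6326 unnamed new genes that reached the floor. A Gene Ontology term was listed for 15 of the 106, and for 223 of the 238 others. Of these 15, 9 listed RNA-directed DNA polymerase activity, the enzyme activity of retroelements, and none listed taste or G protein-coupled receptor terms. No member with another name listed RNA-directed DNA polymerase activity, whereas 637 of 980 unnamed new genes with a term did. The Gene Ontology terms thus did not match the receptor name, and the members are called TAS2R-named below.

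Most members were of low level. The mean FPKM was under 5 in 231 of the 344 and at least 10 in 52, and 191 members (55.5%) reached 1 FPKM in all 11 libraries, near the 53.5% of all genes that reached the floor. The median of the mean FPKM was 2.55 for TAS2R-named members and 4.18 for the others. Members together held 0.883% to 3.31% of the reads of a library.

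The 10 members with the highest mean FPKM carried names of mitochondrial complex I, of the ribosome and of RNA binding and leukocyte proteins. RPL14 (NewGene.12983, 295 bases), a protein of the large ribosomal subunit, was at 387 and 360.2 FPKM in the cattle, 491, 333 and 337 in T1, 278, 357 and 509 in T2 and 472, 479.6 and 246 in T3. RPL35A (NewGene.127), of the same subunit, was at 116 and 121 FPKM in the cattle, 355, 109.8 and 97.2 in T1, 105, 95.8 and 313 in T2 and 386, 402 and 105 in T3. EIF4B (NewGene.2453), an initiation factor that stimulates unwinding of mRNA, was at 144 and 142 FPKM in the cattle, 187, 144 and 134 in T1, 128, 139 and 179 in T2 and 139, 127 and 118 in T3. The cattle lay inside the yak range for each of these, and RPL35A was at 313 FPKM or more in 4 yaks of 3 groups and at or under the lower cattle value in the other 5.

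HNRNPC (NewGene.1026), a protein that binds nascent RNA, was at 88.9 and 69 FPKM in the cattle, 71.8, 69.3 and 64.1 in T1, 50.6, 67.2 and 73 in T2 and 73.4, 83.2 and 42.6 in T3. PTPRC (NewGene.19556), the leukocyte phosphatase CD45, was at 52.2 and 60.5 FPKM in the cattle, 66.3, 74.3 and 55 in T1, 78.7, 84.6 and 51.9 in T2 and 53.1, 30.3 and 54.9 in T3. CDW52 (NewGene.17260), a small surface glycoprotein of leukocytes, was at 32.3 and 32.8 FPKM in the cattle, 126, 84.2 and 26.7 in T1, 24.1, 72.3 and 59.2 in T2 and 117, 41.2 and 26.7 in T3. None of these 6 differed between cattle and yaks by limma's moderated test, with log2 fold changes from -0.27 ± 0.25 (SE; HNRNPC) to 0.71 ± 0.58 (CDW52) and Benjamini-Hochberg adjusted p-values of at least 0.657. For these values a fold change is the difference of mean log2(FPKM + 1), yaks minus cattle, and SE is its standard error.

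The comparison of cattle with all yaks asked which members differed by species and altitude together, giving the 3 altitude groups equal weight. Of the 344 members, 26 were called, that is, they passed a fold change of 2 and an adjusted p of 0.05 in limma, 7 higher and 19 lower in yaks. Over all 13636 genes tested, 3.63% were called, 1.51% higher and 2.12% lower. The members' share was 7.56%. Among unnamed new genes it was 4.66% and among genes with a numeric identifier 2.50%, and the differences between these shares were not tested. The median log2 fold change was -0.07 over members and 0.02 over all genes tested. Of the 310 members that reached 1 FPKM on both sides, 18 were called (5.81%), 4 higher and 14 lower, where 2.41% of all genes that did so were called. With all libraries weighted by their estimated quality, 17 members were called higher and 25 lower, where 8.62% of all genes were called. Of the 7 higher members, only KRAB NewGene.18437 kept its call when either cattle library was left out. The 2 cattle libraries enter every comparison with CON, and leaving out CON replicate 1 or CON replicate 2 took the count from 26 to 9 (2.62% of members) and the share of all genes called to 0.726% or 0.829%.

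**Figure D1:**
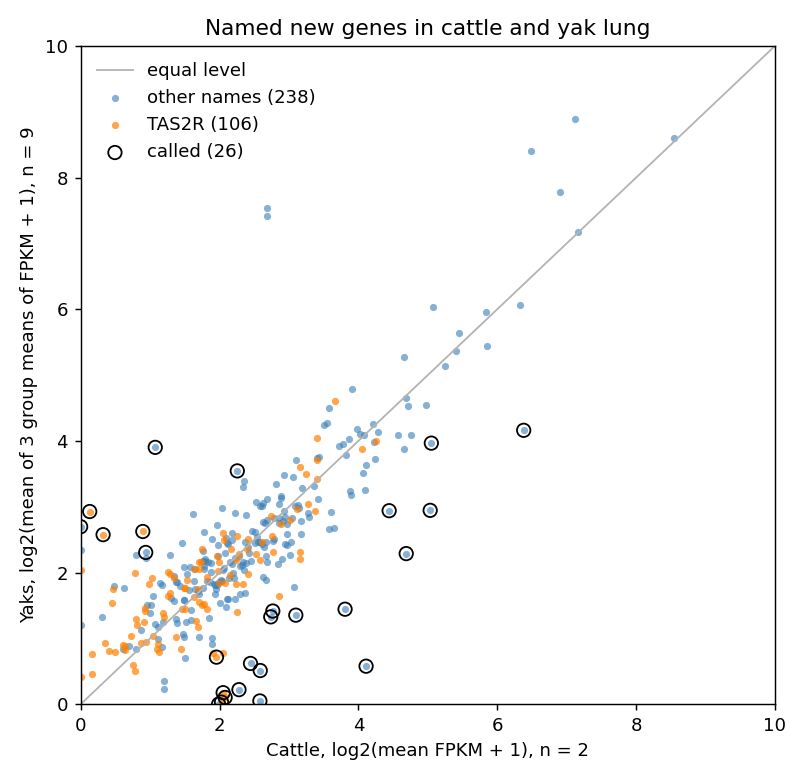
Mean level of each of the 344 members in cattle (x axis, n = 2) and in yaks (y axis, mean of the 3 altitude groups, n = 9), both as log2(FPKM + 1). Orange points are TAS2R-named members, blue points other names, and rings mark the 26 called members, 19 under and 7 over the line of equal level.

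In 25 of the 26 called members the 2 cattle and the 9 yaks did not overlap. The calls were made on these same values, so this adds no support to them. Over all genes tested, called or not, every yak lay below both cattle in 5.90% and above both in 5.60%. Among all members, called or not, these counts were 29 (8.43%) and 17 (4.94%).

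Of the 10 members in the list of mitochondrial respiration, NDUFA2 and NDUFV2 were lower in yaks and none was higher, where 2.12% of all genes tested were lower, while 6 of the 10 had a log2 fold change above 0. NDUFA2 and NDUFV2 name 2 nuclear-encoded subunits of complex I, which passes electrons from NADH to ubiquinone. NDUFA2 (NewGene.16543, 517 bases) was at 17.4 and 15.2 FPKM in the cattle, 0.479, 0.764 and 0 in T1, 0.505, 0.97 and 0.744 in T2 and 0.58, 0 and 0.39 in T3. NDUFV2 (NewGene.9472, 629 bases) was at 13.8 and 12.2 FPKM in the cattle, 1.73, 2.35 and 1.97 in T1, 1.95, 2.57 and 0.994 in T2 and 1.99, 1.52 and 0.408 in T3. Both cattle lay far above the highest yak, which reached 0.970 FPKM for NDUFA2 and 2.57 for NDUFV2. NDUFA2 reached 1 FPKM in cattle only, so it passed the floor through the group in which it was high and had to be lower in yaks. NDUFV2 lost its call without CON replicate 1 (log2 fold change -2.33). The log2 fold change was -3.56 ± 0.30 (adjusted p = 4.28e-05) for NDUFA2, the most negative value of any member on the log2(FPKM + 1) scale, and -2.41 ± 0.33 (adjusted p = 0.00145) for NDUFV2. The order depended on the scale, and with a pseudocount of 0.1 RAN (-5.35) lay below NDUFA2 (-5.15).

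Of the 10 members in the list of chaperones, proteasome and ubiquitin, 3 were lower in yaks and 1 higher, where 2.12% and 1.51% of all genes tested were. DNAJA1 names a co-chaperone of the HSP70 family, HSPA1_8 the HSP70 chaperones themselves, and PPID a peptidyl-prolyl isomerase that works with HSP90. DNAJA1 (NewGene.5994) was at 80.4 and 84.3 FPKM in the cattle, 21.9, 15.2 and 9.0 in T1, 16.4, 14.3 and 28.2 in T2 and 8.33, 28.4 and 10.3 in T3. PPID (NewGene.6161) was at 22.5 and 19.1 FPKM in the cattle, 6.32, 5.14 and 6.09 in T1, 12.2, 5.9 and 8.91 in T2 and 4.46, 6.41 and 4.6 in T3. HSPA1_8 (NewGene.8685) was at 3.03 and 5.88 FPKM in the cattle and 0 to 1.78 FPKM in the yaks. All 9 yaks lay below both cattle for each of the 3. Their log2 fold changes were -2.34 ± 0.41 (adjusted p = 0.00737), -1.55 ± 0.26 (adjusted p = 0.00628) and -1.84 ± 0.34 (adjusted p = 0.00957). DNAJA1, PPID and RNF146, the higher member, lost their calls when either cattle library was left out. HSPA1_8 lost its call without CON replicate 2 (-1.45) and with a pseudocount of 0.1. Without CON replicates 1 and 2 in turn, DNAJA1 was at -2.37 and -2.30, PPID at -1.44 and -1.67 and RNF146 at 1.36 and 1.09. SSR1, a subunit of the translocon-associated complex, and SPCS2, of the signal peptidase complex, which are in none of the lists, were lower too. SSR1 (NewGene.15276) was at 5.7 and 4.31 FPKM in the cattle, 0.418, 0 and 0.509 in T1, 0.293, 1.25 and 1.08 in T2 and 0.281, 0 and 0 in T3. SPCS2 (NewGene.5605) was at 28.6 and 35.7 FPKM in the cattle, 11.8, 8.4 and 11.9 in T1, 11.3, 22.6 and 11.4 in T2 and 18.4, 22.2 and 13.6 in T3. SSR1 fell by 2.13 on the log2 scale (adjusted p = 0.00145), while SPCS2 fell by 1.14 (adjusted p = 0.045) and lost its call in 12 of 20 alternative analyses.

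Also lower in yaks were 3 of the 20 members in the list of ribosomal proteins and 1 of the 10 in that of translation factors and RNA processing, where 2.12% of all genes tested were lower. RPS30 (NewGene.12622), whose family is made as a fusion with a ubiquitin-like peptide, was at 20.3 and 29.3 FPKM in the cattle, 3.67, 3.01 and 2.08 in T1, 3.51, 8.84 and 5.06 in T2 and 4.74, 1.84 and 2.21 in T3. RPL17 (NewGene.15177), of the large subunit, was at 5.14 and 2.58 FPKM in the cattle, 0.145, 0.0676 and 0.0588 in T1, 1.01, 0.104 and 0.0391 in T2 and 0, 0 and 0.0715 in T3. RPS26 (NewGene.10366), of the small subunit, was at 5.81 and 5.54 FPKM in the cattle, 0.829, 0 and 0.126 in T1, 1.31, 1.17 and 1.31 in T2 and 2.51, 3.57 and 2.76 in T3. No yak reached the lower cattle value in any of them, although T3 held the highest yak values of RPS26 and T2 replicate 1 that of RPL17. The log2 fold changes were -2.49 ± 0.35 for RPS30 (adjusted p = 0.00178), -2.04 ± 0.30 for RPL17 (adjusted p = 0.00205) and -1.57 ± 0.28 for RPS26 (adjusted p = 0.00928). HNRNPA1_3 (NewGene.7203), a splicing regulator, was at 5.19 and 6.43 FPKM in the cattle and 0.971 to 2.23 FPKM in the yaks, a fall of 1.36 on the log2 scale (adjusted p = 0.014). RPS26 and HNRNPA1_3 lost their calls without CON replicate 1 (-1.54 and -1.49) and without CON replicate 2 (-1.60 and -1.23). RPL17 lost its call without CON replicate 1 (-1.65) and RPS30 without CON replicate 2 (-2.23). RPS26 also lost its call with a pseudocount of 0.1.

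RAN, MED30, EHMT and SIPA1L1 name proteins of the nucleus and of signalling. RAN (NewGene.9178), the GTPase of nuclear transport, was at 4.1 and 5.87 FPKM in the cattle, 0, 0 and 0 in T1, 0.102, 0.217 and 0 in T2 and 0, 0 and 0 in T3. MED30 (NewGene.6164, 5924 bases), a subunit of the Mediator complex that links transcription factors to RNA polymerase II, was at 2.59 and 3.34 FPKM in the cattle, 0, 0 and 0 in T1, 0, 0 and 0 in T2 and 0, 0 and 0 in T3. Not 1 read of MED30 was counted in the 9 yaks, and with a floor of 3 reads in the shallowest yak library it was at least 165-fold lower in yaks. That bound takes the listed zeros as counts and covers counting error only. MED30 and RAN reached 1 FPKM in cattle only, so they passed the floor through the group in which they were high and had to be lower in yaks. RAN had reads in 2 of the 9 yaks and fell by 2.52 on the log2 scale (adjusted p = 6.20e-05). EHMT (NewGene.2604), a histone H3 lysine 9 methyltransferase, was at 8.92 and 6.21 FPKM in the cattle and 0.628 to 2.91 FPKM in the yaks (log2 fold change -1.78 ± 0.33, adjusted p = 0.00957). SIPA1L1 (NewGene.19802), a GTPase-activating protein of Rap, was at 30.2 and 33.3 and 1.93 to 13.3 FPKM respectively (log2 fold change -2.28 ± 0.53, adjusted p = 0.0319), and lost its call in 7 of 20 alternatives. EHMT lost its call without CON replicate 1 (log2 fold change -1.55) and without CON replicate 2 (-2.01).

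Also lower in yaks were 4 TAS2R-named members. NewGene.5392 (211 bases) was at 3.65 and 2.51 FPKM in the cattle, and 1 of 9 yaks had any read of it. NewGene.16403 (235 bases) was at 2.41 and 4.05 FPKM in the cattle and had reads in 2 yaks, at 0.257 and 0.409. NewGene.6406 (14419 bases) was at 2.3 and 4.0 FPKM in the cattle, 0, 0 and 0 in T1, 0, 0.0135 and 0 in T2 and 1.15, 0 and 0 in T3. For all 3 the yaks stood at or near 0, apart from T3 replicate 1 in the last. Their log2 fold changes were -1.99 ± 0.22, -1.96 ± 0.25 and -1.90 ± 0.30, with adjusted p-values of 0.000354, 0.000903 and 0.00433. NewGene.5392 and NewGene.16403 reached 1 FPKM in cattle only, so they passed the floor through the group in which they were high. NewGene.6406 lost its call without CON replicate 2 (log2 fold change -1.60). NewGene.16097, at 2.44 and 3.32 FPKM in the cattle and 0.0831 to 1.33 FPKM in the yaks, fell by 1.26 (adjusted p = 0.0395) and lost its call in 10 of the 19 alternatives that tested it.

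Of the 7 members higher in yaks, 2 carried the name KRAB and 3 TAS2R. KRAB (NewGene.18437, 601 bases) was at 1.16 and 1.06 FPKM in the cattle, 18.7, 10.3 and 11.3 in T1, 14, 8.95 and 21.3 in T2 and 15.6, 16 and 9.43 in T3. KRAB (NewGene.19513, 343 bases) was at 0 and 0 FPKM in the cattle, 5.27, 3.94 and 6.25 in T1, 8.75, 0 and 5.19 in T2 and 7.29, 8.19 and 4.49 in T3. The lowest yak lay well above both cattle for the first, and the second had no read in either cattle or in T2 replicate 2. Log2 fold changes were 2.77 ± 0.32 (adjusted p = 0.000528) and 2.49 ± 0.62 (adjusted p = 0.0444). Against a floor of 3 reads in the shallower cattle library, NewGene.19513 was at least 23.7-fold higher in yaks, but its call was lost in 12 of the 19 alternatives that tested it. It reached 1 FPKM in yaks only, so it passed the floor through the group in which it was high.

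The TAS2R-named NewGene.4768 (3317 bases) was at 0.062 and 0.128 FPKM in the cattle, 6.54, 6.05 and 16.4 in T1, 4.84, 7.25 and 4.2 in T2 and 6.59, 2.52 and 5.08 in T3. NewGene.2393 (1558 bases) was at 0.231 and 0.272 FPKM in the cattle, 5.2, 4.31 and 3.51 in T1, 4.79, 6.17 and 8.43 in T2 and 2.52, 2.53 and 7.21 in T3. NewGene.11245 (2554 bases) was at 0.704 and 1.02 FPKM in the cattle, 2.21, 2.07 and 5.34 in T1, 8.4, 6.57 and 6.47 in T2 and 5.46, 5.84 and 4.12 in T3. Every yak exceeded both cattle in each of them, and for NewGene.11245 the 2 lowest yaks were T1 replicates 1 and 2. The log2 fold changes were 2.67 ± 0.38 (adjusted p = 0.00201), 2.18 ± 0.35 (adjusted p = 0.00407) and 1.65 ± 0.31 (adjusted p = 0.0113). NewGene.4768 and NewGene.2393 reached 1 FPKM in yaks only, so they passed the floor through the group in which they were high and had to be higher there. Each of these TAS2R-named members lost its call when either cattle library was left out.

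TESC and RNF146 completed the 7. TESC (NewGene.5026), a calcium-binding regulator of a sodium-proton exchanger, was at 1.1 and 0.734 FPKM in the cattle, 6.08, 6.17 and 2.83 in T1, 4.06, 2.5 and 5.33 in T2 and 2.83, 2.42 and 3.29 in T3. RNF146 (NewGene.5915), a ubiquitin ligase that recognises poly-ADP-ribose, was at 4.23 and 3.33 FPKM in the cattle, 11.5, 13.8 and 12.3 in T1, 4.82, 7.73 and 10.8 in T2 and 7.55, 17 and 10.5 in T3. The yak values were above both cattle but spread from 2.42 to 6.17 and from 4.82 to 17.0 FPKM. Log2 fold changes of 1.32 ± 0.32 (adjusted p = 0.0426) and 1.23 ± 0.31 (adjusted p = 0.0494) were close to the threshold, and their calls were lost in 11 of 19 and 14 of 20 alternatives. The next members by p that were higher in yaks were not called: FTSJ1 (NewGene.8822), a tRNA methyltransferase, with 10.6 and 11.3 FPKM in the cattle and 15.9 to 27.3 FPKM in the yaks (log2 fold change 0.90 ± 0.22, adjusted p = 0.0448, under the fold threshold), and the TAS2R-named NewGene.17978 (1.04 ± 0.27, adjusted p = 0.0512) and NewGene.2914 (1.14 ± 0.31, adjusted p = 0.0652). NewGene.17978 was called with a pseudocount of 0.1, with library weights, and without T2 replicate 1 or T3 replicate 3 (adjusted p = 0.00271 to 0.0421).

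**Figure D2:**
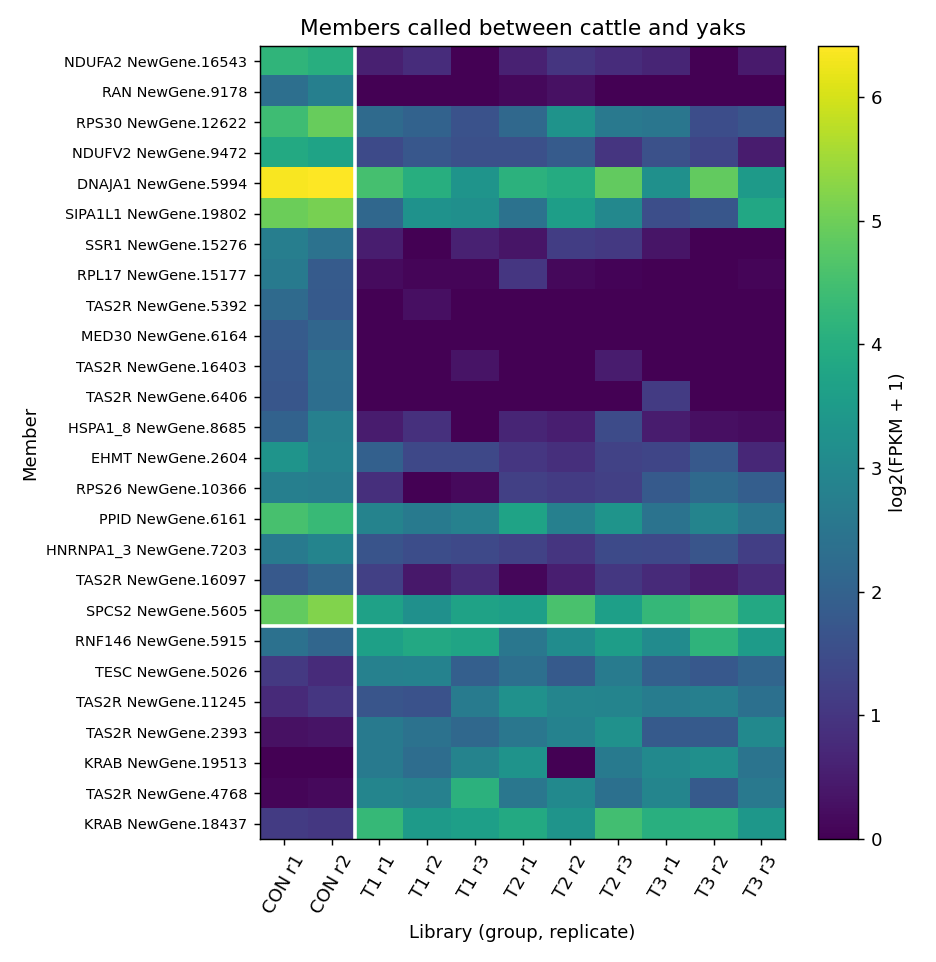
Level of the 26 called members in each of the 11 libraries as log2(FPKM + 1), ordered by log2 fold change on that scale, from NDUFA2 (-3.56) to KRAB NewGene.18437 (2.77). The vertical line divides cattle from yaks and the horizontal line the 19 lower from the 7 higher members. Within a row of a lower member the 2 cattle columns are the brightest, and SPCS2 and DNAJA1 stay above 8 FPKM in every yak.

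Each yak group was also compared with CON alone. Against T1, 23 members were called, 8 higher and 15 lower, a share of 6.69% where 2.79% of all genes tested were called. Against T2, 19 were called, 5 higher and 14 lower (5.52%, background 2.18%). Against T3, 21 were called, 4 higher and 17 lower (6.10%, background 2.80%). These comparisons share the 2 cattle libraries, and without CON replicate 1 or CON replicate 2 the counts were 9 and 9 in T1, 7 and 6 in T2, and 9 and 9 in T3, where 0.484% to 0.682% of all genes were called. They also moved without T1 replicate 2 (14 in T1), T2 replicate 3 (12 in T2) and T3 replicate 3 (38 in T3), where 1.21%, 1.03% and 8.38% of all genes were called. Called in all 3 with 1 sign were 14 members, 4.07% of members where 1.28% of all genes tested were. NDUFA2, NDUFV2, RAN, DNAJA1, SSR1, RPL17, RPS30, MED30 and the TAS2R-named NewGene.5392, NewGene.6406 and NewGene.16403 were lower, and KRAB NewGene.18437 and the TAS2R-named NewGene.2393 and NewGene.4768 higher. Some of these passed the FPKM floor only through the species in which they were high. Among the 310 members that reached 1 FPKM on both sides, 14 were called against T1, 12 against T2 and 13 against T3 (4.52%, 3.87% and 4.19%), and 7 in all 3 (2.26%). Over the 11871 genes tested that did so, the shares were 1.74%, 1.31%, 1.94% and 0.581%.

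Members called in 1 altitude group and not against all yaks together numbered 5 (1.45%, background 1.03%). DYNLL (NewGene.7951), a dynein light chain, was called higher in T2 (log2 fold change 1.42), with 0.47 in T1 and 0.49 in T3. RAET1 (NewGene.9318), which names ligands of an activating receptor of natural killer cells, was called lower in T3, with log2 fold changes of -0.86 in T1, -0.88 in T2 and -1.19 in T3, and it reached 1 FPKM in the 2 cattle alone, so it passed the floor through the group in which it was high. NewGene.2914, NewGene.17978 and FTSJ1 were called higher in T1, with log2 fold changes of 1.53, 1.46 and 1.08. Whether these effects differed between altitudes was tested by the comparisons of yak groups, which called no member.

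**Figure D3:**
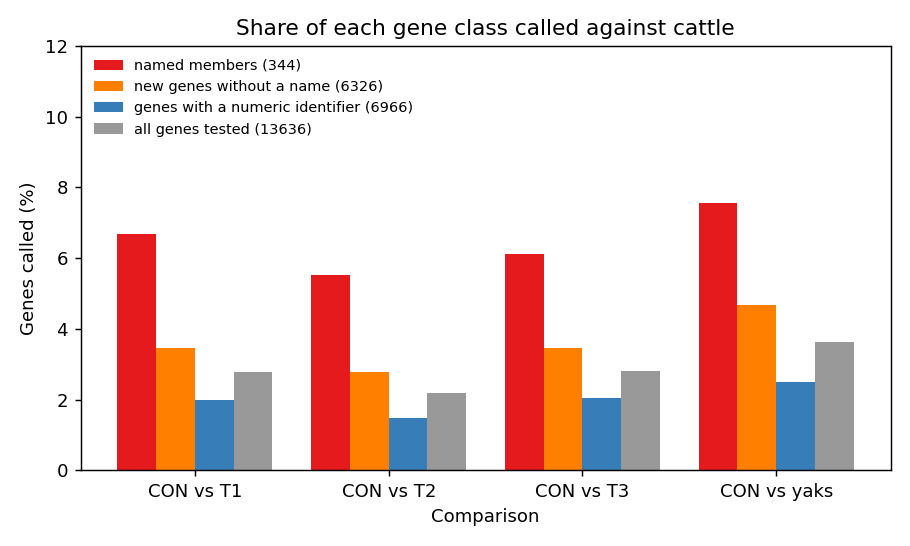
Percentage of genes called in each comparison with CON (bars, from 0) for the 344 members, 6326 unnamed new genes, 6966 genes with a numeric identifier and all 13636 genes tested. The members' bars, from 5.52% to 7.56%, are the tallest in all 4 comparisons; differences between classes were not tested.

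Taken as a family, the TAS2R-named members moved in both directions. Of the 106, 7 were called between cattle and yaks, 3 higher and 4 lower, a share of 6.60% against 7.98% of the 238 members with other names, of which 4 were higher and 15 lower. Over all genes tested 3.63% were called, and 4 of the 7 (NewGene.5392, NewGene.16403, NewGene.4768 and NewGene.2393) reached 1 FPKM only in the species in which they were high. The 3 higher members lost their calls when either cattle library was left out. The median log2 fold change over the 106 was -0.04, with 52 above and 54 below 0. Their summed FPKM was 307 and 374 in the cattle, 374 to 447 in T1, 344 to 382 in T2 and 254 to 446 in T3, so the groups overlapped. The lowest sums, 254 and 261, were those of T3 replicates 1 and 2. Members with consecutive numbers could differ: the TAS2R-named NewGene.2913 (17291 bases) was at 6.49 and 6.06 FPKM in the cattle, 1.73, 1.32 and 1.99 in T1, 2.31, 4.2 and 1.61 in T2 and 1.14, 0.989 and 3.98 in T3, and NewGene.2914 (20652 bases) was at 0.877 and 0.569 FPKM in the cattle, 4.84, 3.89 and 3.22 in T1, 4.4, 3.33 and 2.35 in T2 and 1.94, 0.797 and 2.1 in T3. The first was higher in both cattle and the second higher in all yaks apart from T3 replicate 2, though neither was called against all yaks together (log2 fold changes -1.29 ± 0.37 and 1.14 ± 0.31). NewGene.2914 was called against T1, and against all yaks with quantile normalization, voom, library weights, and without T3 replicate 2 alone or with T3 replicate 1 (adjusted p = 0.00472 to 0.0421).

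Among the 9 KRAB members, which were 208 to 606 bases long, 2 were called, both higher, where 1.51% of all genes tested were, and the median log2 fold change was 0.16. The pair with consecutive numbers again ran opposite ways: NewGene.19512 was at 10.2 and 11.6 FPKM in the cattle and 3.14 to 7.77 FPKM in the yaks (log2 fold change -0.95 ± 0.28, adjusted p = 0.0879), whereas NewGene.19513 was listed at 0 in both cattle and passed the floor through the yaks alone. None of the 8 SETMAR members was called, with a median log2 fold change of 0.12 and mean FPKM from 0.806 to 6.71.

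Some members that shared a name differed in level and in their difference between species. Of 4 RPL17 members, NewGene.15177 was called lower, and the other 3 were not called. RPL17 (NewGene.14317) was at 9.69 and 5.53 FPKM in the cattle, 19.7, 10.1 and 9.21 in T1, 6.13, 6.11 and 14.3 in T2 and 15.6, 21.6 and 5.66 in T3. RPL17 (NewGene.107) was at 7.23 and 3.18 FPKM in the cattle, 13.7, 2.83 and 1.44 in T1, 5.68, 5.12 and 2.29 in T2 and 12.8, 7.09 and 1.37 in T3. Of 2 RAN members, NewGene.886 was at 6.39 and 6.63 FPKM in the cattle and 3.56 to 7.95 FPKM in the yaks (log2 fold change -0.17 ± 0.31, adjusted p = 0.884), beside the near absence of NewGene.9178 from yaks. MED30 was named 3 times, and NewGene.3997, at 6.86 and 9.32 FPKM in the cattle and 4.36 to 12.7 FPKM in the yaks, and NewGene.17055, at 2.76 and 4.07 and 1.4 to 4.35 FPKM, were found in both species, unlike NewGene.6164. HNRNPA1_3 (NewGene.8296) was at 3.04 and 2.83 FPKM in the cattle and 2.93 to 6.84 FPKM in the yaks and was not called (log2 fold change 0.41 ± 0.28). TSPYL5, HAUS3, TUBA, ATPeV0A, UTP14, SPTA, PINX1, INTS1, BTBD11, NOP56, CDKN2B, METT10D, CSPG4, RPS15A, RPSA and ND2 were each held by 2 or 3 members, none of them called between cattle and yaks.

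The 344 members were also grouped by 18 gene lists, and 201 fell in a list. The counts below are of members called between cattle and yaks, a call made for 3.63% of all genes tested, 1.51% higher and 2.12% lower, and differences from these shares were not tested. They include the calls, given above, that were lost when a cattle library was left out. Of 20 members in the ribosomal protein list, 3 were lower in yaks and none higher, with a median log2 fold change of -0.22 and 8 of the 20 above 0. That list also caught MRPL41 and MRPS36 of the mitochondrial ribosome and the kinase RPS6KA5, none of them called. Its other abundant members included RPS6 (NewGene.16507), at 56.7 and 56.6 FPKM in the cattle and 25.6 to 68 FPKM in the yaks, and RPL35 (NewGene.9430), at 27.9 and 24.4 and 0.895 to 26.9 FPKM. Of 10 members named for translation factors and RNA processing, HNRNPA1_3 was lower and none higher (median -0.36). PCBP1 (NewGene.1035), a binder of poly-C RNA, was at 22.8 and 25.6 FPKM in the cattle and 8.77 to 26.8 FPKM in the yaks. Of 10 members of the chaperone, proteasome and ubiquitin list, DNAJA1, PPID and HSPA1_8 were lower and RNF146 higher (median -0.12), and CCT3 (NewGene.12060), a subunit of the cytosolic chaperonin, was at 44.4 and 38.9 FPKM in the cattle and 23.3 to 62.3 FPKM in the yaks.

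The list of mitochondrial respiration held 10 members, of which NDUFA2 and NDUFV2 were lower and none was higher (median 0.13). NDUFA2 passed the floor through the cattle alone. The histone and chromatin list held 12, the channel and transporter list 6, the cytoskeleton and motor list 7 and the kinase and GTPase list 11, none called, with medians of 0.03, -0.12, 0.03 and 0.06. In these lists H2A (NewGene.5216), a core histone, was at 21.1 and 14.7 FPKM in the cattle and 7.03 to 15.9 FPKM in the yaks, MYL12 (NewGene.15419), a regulatory myosin light chain, at 57.5 and 27.6 and 25 to 85.5 FPKM, and GJA4 (NewGene.7932), the endothelial gap junction protein connexin 37, at 5.51 and 4.78 and 1.69 to 7.06 FPKM. The sensory receptor list was the 106 TAS2R-named members. Of 3 members for innate immunity, 4 for metabolic enzymes, 2 for extracellular matrix and 1 each for glycolysis and hypoxia, zinc fingers and hemoglobin and iron, PPID, which an alias placed among the enzymes, was the only one called. The lists of antigen presentation, of antigen receptors and of endogenous retrovirus proteins had no member.

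Among the pathway annotations, Protein processing in endoplasmic reticulum had 5 members, of which DNAJA1, HSPA1_8 and SSR1 were lower, where 2.12% of all genes tested were. DNAJA1 lost its call when either cattle library was left out, SSR1 without CON replicate 1 (log2 fold change -1.96) and HSPA1_8 without CON replicate 2. RPN1 (NewGene.11681), a subunit of the oligosaccharyltransferase, at 3.87 and 3.51 FPKM in the cattle and 1.1 to 8.65 FPKM in the yaks, and PARK2 (NewGene.15660), the ubiquitin ligase parkin, at 1.27 and 1.61 and 2.16 to 6.41 FPKM, were not called. Spliceosome had 8 members and 2 lower ones, HNRNPA1_3 and HSPA1_8, and Ribosome 17 members and 3 lower ones. These lower members also lost calls when a cattle library was left out, as given above.

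Several members named for subunits encoded by mitochondrial DNA varied widely in level between libraries. The ND2 member NewGene.7293 was listed at 0 in none, with 30 to 163 reads in each library. ND2 and ND5 are core subunits of complex I. ND2 (NewGene.1, 10451 bases) was at 137 and 138 FPKM in the cattle, 1024, 197 and 30.4 in T1, 1556, 74.4 and 15.7 in T2 and 689, 670.5 and 0 in T3. ND5 (NewGene.2, 16323 bases) was at 88 and 88.5 FPKM in the cattle, 0, 324 and 90.8 in T1, 570.5, 112 and 713 in T2 and 441, 0 and 772 in T3. In both, the cattle lay inside the yak range, and both were listed at 0 in single yaks, ND2 in T3 replicate 3 and ND5 in T1 replicate 1 and T3 replicate 2. The 2 held the same number of reads, within 2, in both cattle and in T3 replicate 1 (55865 and 55867, 54601 and 54601, 288170 and 288170). Where ND5 was at 0, ND2 held 431916 and 197181 reads, and where ND2 was at 0, ND5 held 686494. Whether these zeros are true absence or a shift of reads between the 2 genes was not tested. Neither was called, and log2 fold changes of -0.19 ± 2.17 and 0.04 ± 2.23 had large errors.

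The ND5 members NewGene.12170 and NewGene.12171, both 1907 bases long, held the same read counts in 9 of the 11 libraries. They were at 4.77 and 6.11 FPKM in the cattle. In the yaks NewGene.12170 was at 169.8, 267 and 0 FPKM in T1, 402, 136 and 153 in T2 and 116, 174 and 239 in T3. NewGene.12171 was at 169.8, 267 and 268 in T1, 0, 136 and 153 in T2 and 116, 174 and 239 in T3. The former was listed at 0 in T1 replicate 3 and the latter in T2 replicate 1, and in these libraries the other was at 268 and 402 FPKM, so that a listed 0 may not be a true absence, which was not tested. Every yak therefore had at least 1 of them at 116 FPKM or more, above both cattle. With all libraries weighted equally, their log2 fold changes of 4.07 ± 1.46 and 4.0 ± 1.34 did not pass the test (adjusted p = 0.179 and 0.144). With library weights they did (4.05 and 4.39, adjusted p = 0.0371 and 0.0015). The weights were 2.1 in each cattle, 1.12 in T1 replicate 3 and 0.395 in T2 replicate 1, where NewGene.12171 was listed at 0. How far the weights made these calls was not tested. Without T1 replicate 3, NewGene.12170 was higher in yaks by 4.93 (adjusted p = 7.2e-05), and without T2 replicate 1, NewGene.12171 was higher by 4.80 (adjusted p = 6.15e-06). In each case the library left out was the only yak listed at 0, so these values follow from that choice and support no difference. All cattle reads had been aligned to the yak reference, and how far sequence divergence enters these cattle values was not tested.

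**Figure D4:**
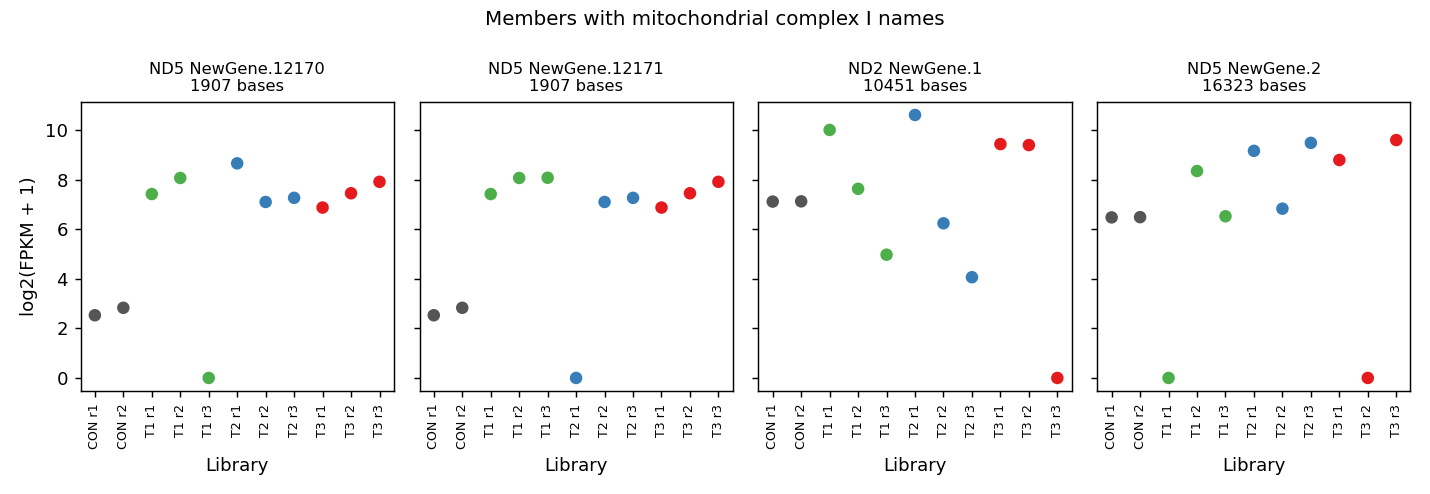
Level of 4 members with mitochondrial complex I names in each library as log2(FPKM + 1), 1 point per library, grey for CON, green for T1, blue for T2 and red for T3. The ND5 pair (2 left panels) is at 4.77 and 6.11 FPKM in the cattle and at 116 FPKM or more in yaks, with 1 yak at 0 in each panel. ND2 and ND5 in the right panels overlap between cattle and yaks.

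Some members were listed at 0 in some yaks and well above it in others. In 13 members at least 1 yak was at 0 while another reached 5 FPKM. They include the 4 mitochondrial ones, whose zeros stood where a partner was high, and whether the zeros of the other 9 are true absence was not tested. CXCL8 (NewGene.8896), the neutrophil-attracting chemokine interleukin 8, was at 5.12 and 6.91 FPKM in the cattle, 0.751, 0.168 and 0.146 in T1, 75.5, 0.574 and 2.9 in T2 and 2.1, 0.23 and 0 in T3. RPSA (NewGene.3680), the laminin receptor of the small ribosomal subunit, was at 0 and 0 FPKM in the cattle, 0, 0 and 0 in T1, 14.8, 0 and 9.48 in T2 and 0, 0 and 12.5 in T3. RPL17 (NewGene.5203) was at 15.6 and 16.5 FPKM in the cattle, 17.1, 0.649 and 0.471 in T1, 16.3, 12.2 and 1.09 in T2 and 27.1, 2.11 and 0 in T3. CXCL8 peaked in T2 replicate 1, and RPSA was detected in 3 yaks of 2 groups and in no other library.

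XYLT (NewGene.6933), a xylosyltransferase that starts proteoglycan chains, was at 4.82 and 3.54 FPKM in the cattle, 9.57, 4.06 and 0 in T1, 6.41, 0 and 0 in T2 and 0, 0 and 0 in T3. ABCC4 (NewGene.13351), an organic anion exporter, was at 0 and 0 FPKM in the cattle, 0.506, 0 and 6.74 in T1, 0.106, 0.341 and 3.93 in T2 and 0, 0 and 0.131 in T3. DUOX (NewGene.5077), a hydrogen peroxide-producing oxidase of airway epithelium, was at 0.389 and 0.40 FPKM in the cattle, 1.07, 0.899 and 1.11 in T1, 14.1, 0 and 3.32 in T2 and 1.62, 0 and 0 in T3. In each of them a yak listed at 0 and the yak with the highest level fell within 1 altitude group, and none was called in a comparison with CON. The TAS2R-named NewGene.10216 (22303 bases) was at 5.50 FPKM in 1 cattle and 6.51 in T1 replicate 1, and was at 0 in 8 yaks. NewGene.87 was at 0 in the cattle and in 3 yaks, and between 2.38 and 7.04 FPKM in the others.

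**Figure D5:**
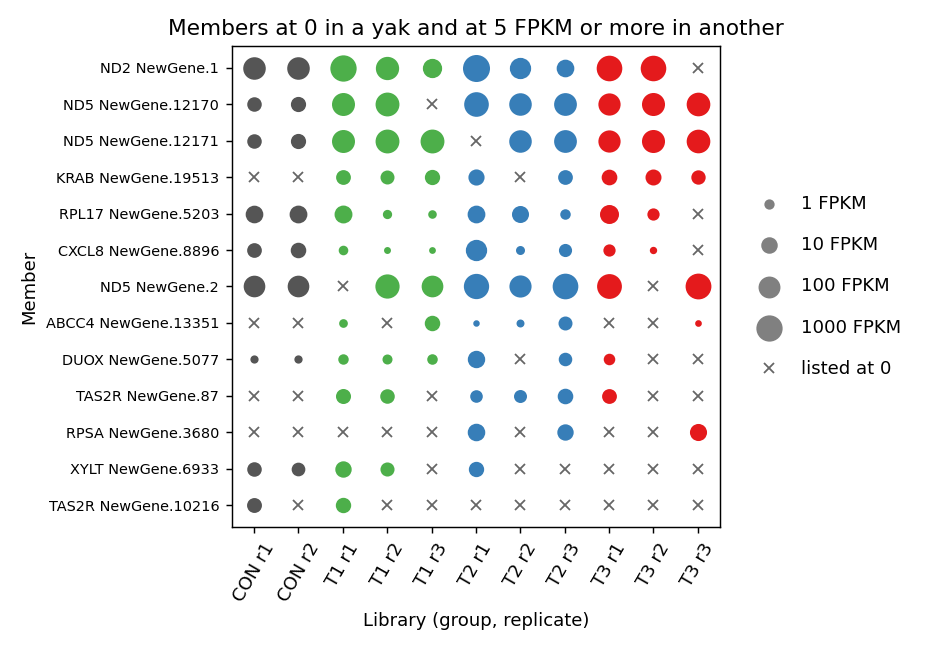
The 13 members (rows) that were listed at 0 in at least 1 yak and at 5 FPKM or more in another, by library (columns). Circle area grows with log2(FPKM + 1), crosses mark libraries listed at 0, and colours are grey for CON, green for T1, blue for T2 and red for T3. Crosses range from 1 to 8 of the 9 yaks and fall within groups, as for RPSA, detected in T2 replicates 1 and 3 and T3 replicate 3.

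The comparisons between yak groups asked which members followed altitude. No member was called in T1 vs T2, T1 vs T3 or T2 vs T3, and 0% of all genes tested were called by limma in each. Read counts tested with limma's voom also gave 0 members in each, and weighting the libraries by their estimated quality gave 0, 29 and 5, which is 0%, 8.43% and 1.45% of members where 0%, 9.28% and 2.33% of all genes were called. At an unadjusted p of 0.05 and a fold change of 2, 14 members passed in T1 vs T2 (4.07%, background 2.61%), 11 in T1 vs T3 (3.20%, background 5.68%) and 10 in T2 vs T3 (2.91%, background 5.42%). These shares moved with the analysis. With median-ratio scaling, 7 members passed in T1 vs T3 (2.03%, all genes 1.99%), with a pseudocount of 0.1, 34 (9.88%, all genes 10.75%), and without T3 replicate 3, 49 (14.2%, all genes 14.4%). In T1 vs T3 the median log2 fold change was -0.35 over members and -0.37 over all genes, and after median-ratio scaling of the libraries it was 0.02 over members. A member near -0.35 had thus moved with the bulk of the genes.

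Leaving out T3 replicate 3 changed these counts most: 33 members were then called in T1 vs T3, 1 higher and 32 lower, and 16 in T2 vs T3, all lower in T3. Over all genes tested, 8.71% and 6.34% were called in that analysis, and the members' shares were 9.59% and 4.65%. The libraries that remained, T3 replicates 1 and 2, had 132 and 143 of the 344 members below all 6 libraries of T1 and T2, against 66 in T3 replicate 3, and over all genes these shares were 43.3%, 48.7% and 19.8%. Those 2 libraries were also the ones with the highest share of reads on their 10 most abundant genes, whose part in the result was not tested. By its own numbering, the study lists the lowest shares of uniquely mapped reads for T3 libraries 1 and 2. It lists the highest share for T3 library 3, the one left out here if the numbering is the same. The part of mapping in the result was not tested either.

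The 5 members with the smallest p in each direction of T1 vs T3 were as follows, none of them called. RPS26 (NewGene.10366) was at 0.829, 0 and 0.126 FPKM in T1 and 2.51, 3.57 and 2.76 in T3, 1.62 ± 0.30 higher in T3 on the log2 scale (adjusted p = 0.114). SPCS2, RPL35, the TAS2R-named NewGene.11245 and OLFR (NewGene.2608), an olfactory receptor name, followed with log2 fold changes of 0.69, 1.37, 0.62 and 0.66 and adjusted p-values of at least 0.246. Lower in T3 than in T1 were 5 others with adjusted p-values near 0.133. SPI1 (NewGene.10605), the transcription factor PU.1 of myeloid and B cells, was at 2.06, 4.18 and 3.55 FPKM in T1 and 0, 0.697 and 0.36 in T3, with 0.512, 1.37 and 0.471 in T2. RBBP4 (NewGene.7774), a histone-binding subunit of chromatin complexes, was at 22.3, 20.6 and 23, 9.25, 7.29 and 16.1 and 18.2, 23 and 22.8 in the same order. PPP1R3F (NewGene.1783), a regulatory subunit of protein phosphatase 1, was at 8.89, 5.98 and 6.11, 2.14, 3.94 and 1.69 and 2.62, 2.1 and 2.94. In these 3 every T3 library lay below every T1 library, as in 53 members (15.4%) and 21.6% of all genes tested. T2 lay beside T1 for RBBP4 and beside T3 for SPI1 and PPP1R3F. Log2 fold changes were -1.66 ± 0.42 for SPI1, -1.02 ± 0.27 for RBBP4 and -1.19 ± 0.31 for PPP1R3F, and -1.07 and -1.13 for the TAS2R-named NewGene.14822 and NewGene.812. Without T3 replicate 3, these 5 lower members and RPS26 were called. They were also called with library weights (adjusted p = 0.00913 to 0.0267). That fit gave T3 replicate 3 the lowest weight of the 11 libraries, 0.229, so it is not separate from leaving that library out.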

How the data were processed

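The deposited tables gave 1 FPKM value per gene and library, made by the authors for 2 cattle and 9 yak lungs. According to the study's methods, HISAT2 aligned the reads to BosGru_v2.0, a yak assembly, and StringTie built the transcripts, while the submitters' processing notes list Bowtie2 2.2.8 and TopHat2 2.1.1. The extract protocol mentions retinas although the tissue label is lung. The study describes its mapped reads as uniquely aligned, but whether the FPKM values rest on those alone is not given in the sources used here.

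Each deposited FPKM multiplied by gene length was a whole multiple of the smallest such product in its library (100% of values, tolerance 0.3), which gave read counts and the depths. None of the numeric identifiers matched the reference table. Genes at 1 FPKM or more in at least 2 of 11 libraries were tested with limma 3.58.1 in R 4.3.3 on log2(FPKM + 1), with empirical Bayes variance trend, 1 mean per group and all libraries. Tests were two-sided, and p-values were adjusted by the Benjamini-Hochberg method over all 13636 genes. A call needed both a fold change of 2 or more and an adjusted p below 0.05, the thresholds of the study's methods. The study's abstract gives a p below 0.05 without naming an adjustment. In place of the study's own count test, limma was used on the deposited FPKM, and voom on the recovered read counts was an alternative. A pseudocount of 1 understates changes of low genes. The steps were tested on simulated counts in which only genes with many reads were changed, so that test does not cover calls at low levels. Each library came from 1 animal, with no technical repeats to separate animal from library spread.

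Members and gene lists were chosen with earlier results of these data known. Named were all members called between cattle and yaks, the next by p up to 10 in a direction, the 10 highest means, the 5 smallest p in each direction of T1 vs T3, examples of each list by mean FPKM, and members sharing a name. The members of the on-and-off group, the consecutive pairs, members called in 1 altitude group only and those of the endoplasmic reticulum pathway were chosen after their values were seen. Alternatives were other scalings, pseudocount, filters, voom, library weights, a replicate block and libraries left out.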

Additional observations from a re-analysis of the deposited data

Results flagged for a closer look

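The TAS2R-named NewGene.14822 (1001 bases) went opposite ways in T1 and T3 when each was set against the cattle. It was at 0.77 and 1.08 FPKM in the cattle, 1.11, 2.14 and 1.57 in T1, 0.886, 1.06 and 0.841 in T2 and 0.375, 0 and 0.33 in T3: all 3 T1 libraries lay above both cattle and all 3 T3 libraries below both. This pattern was also found in 2.39% of all genes tested and in 6 members (1.74%), and T3 was lower than T1 for most genes (median log2 fold change -0.37 over all genes). The log2 fold change between T1 and T3 was -1.07 ± 0.27 (SE), and limma's adjusted p of 0.133 did not pass the threshold. It was called with library weights (-1.17, adjusted p = 0.0158) and without T3 replicate 3 (-1.13, adjusted p = 0.0329). In those 2 fits 9.28% and 8.71% of all genes tested were called. T3 replicate 3 had the lowest library weight, 0.229, so the 2 fits are not separate support.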

How the results depend on the processing

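The 26 members called between cattle and yaks kept their direction in every alternative that tested them (20 for some, and 19 for those below a mean FPKM of 5), and 6 of them (NDUFA2, RAN, MED30, KRAB NewGene.18437 and the TAS2R-named NewGene.5392 and NewGene.16403) were called in every alternative that tested them. All of these 6 but KRAB reached 1 FPKM in cattle only, so they passed the floor through the group in which they were high. Other counts for that comparison were 25 with median-ratio scaling, 27 with quantile normalization, 22 with a pseudocount of 0.1 and 26 with voom, and 24 without T3 replicates 1 and 2, with 2.73% to 4.29% of all genes called. With a mean FPKM of at least 5, which left 113 members, 5 were called there, and 7, 3 and 5 with the cattle set against T1, T2 and T3 alone (2.26%, 2.25%, 1.28% and 1.48% of all genes). Library weights gave 42, 49, 34 and 59 in the same order, 29 between T1 and T3 and 5 between T2 and T3, while the share of all genes called rose to 8.62%, 9.996%, 5.78%, 13.8%, 9.28% and 2.33%. Voom gave 15, 11 and 13 for the cattle against T1, T2 and T3 (1.20%, 0.689% and 1.18% of all genes), the pseudocount of 0.1 gave 11 against T2 (1.84%), and leaving out T3 replicates 1 and 2 gave 11 against T3 (1.02%), where the cause was not tested. Leaving out 1 library at a time gave 9 to 33 calls for the cattle against T1, 6 to 20 against T2, 9 to 38 against T3 and 9 to 31 against all yaks (0.726% to 4.94% of all genes), 0 between T1 and T2, 0 to 33 between T1 and T3, and 0 to 16 between T2 and T3. The 33, 20 and 38 members called against T1, T2 and T3 without T3 replicate 3 stood beside 4.26%, 2.94% and 8.38% of all genes. Where a group kept 1 library (1 cattle, or T3 replicate 3), it was assumed to vary like the other groups. Replicate numbers did not pair the libraries (correlations of deviations from -0.102 to 0.362). A fit with the numbers as a replicate block called 23 members in CON vs yaks, 21 of them among the 26, where 3.285% of all genes were called. Members not called and near 0 changed sign. ND2 (NewGene.1, -0.19) was at 0.12 with library weights and 1.76 with the replicate block, and -0.80 to 0.85 over the libraries left out. ND5 (NewGene.2, 0.04) was at -0.68 with the pseudocount of 0.1, -2.14 with voom and -0.96 with the replicate block, and -0.53 to 1.07. RPL14 (0.02) was at -0.21 with quantile normalization and -0.19 without T3 replicates 1 and 2, and -0.06 to 0.12. EIF4B was at 0.03 with library weights and 0.0013 with the replicate block, and -0.05 to 0.03, and PTPRC (0.06) was at -0.04 to 0.17. The 2 cattle libraries limit every comparison with CON. Levels near 1 FPKM rest on few reads in short genes: 3 reads of a gene of 1000 bases were 0.0550 to 0.107 FPKM, and this covers counting error only.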

Other observations

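The 46 named new genes under the FPKM floor included 24 named TAS2R, 3 named SETMAR and 3 named KRAB, and 16 of the 46 reached 1 FPKM in a single library. The highest of these were BCL2L1 (NewGene.16685), an inhibitor of apoptosis, at 18.3 FPKM and VNN (NewGene.1919), a pantetheinase, at 14.8 FPKM, both in T2 replicate 1. The same library held the highest level of CXCL8 among members, 75.5 FPKM. These genes were named after their values were seen, and no test was made.

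The 33 members called in T1 vs T3 once T3 replicate 3 was left out, also named after their values were seen, were led by TCF7L2 (log2 fold change -1.79), a transcription factor of the Wnt pathway, SPI1 (-1.68), ABLIM (-1.67), an actin-binding protein, and NOP58 (-1.62), a nucleolar protein of small RNA particles. RPS26 was the one that was higher in T3 (1.65).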
